A study of Mus musculus with 17 samples.

Results

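The genes described here code for enzymes and regulators of cholesterol and fatty acid synthesis. They were listed by name from the pathway, with earlier results of these data known. The list holds 31 of the 55450 genes in the bulk table: 7 mevalonate steps, 11 squalene and sterol steps, 4 regulators, 3 steps of fatty acid synthesis, 5 elongases and desaturases, and 1 sterol transfer protein. Each matched 1 gene identifier, and all 31 passed the filter on low values, 1 TPM or more in at least 2 of the 14 bulk libraries (TPM gives the share of a transcript in its library, corrected for length), as did 15348 genes in all.

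Cells build cholesterol from acetyl-CoA. The mevalonate steps make isoprenoid units, which are joined to squalene, closed to lanosterol and trimmed to cholesterol by the sterol steps. Fatty acid synthesis starts from the same acetyl-CoA, and the elongases and desaturases lengthen the products and add double bonds. Both branches are known targets of the SREBP transcription factors (Srebf1 and Srebf2), which the escort protein Scap carries to the Golgi when membrane sterol is low and which Insig1 holds back in the endoplasmic reticulum when it is high. Fast-growing epithelial tumor cells often run both branches, since new membrane needs both products.

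The cells came from 10 female FVB/NJ mice with the MMTV-PyMT transgene, aged 10 to 12 weeks, in which the mouse mammary tumor virus promoter drives the polyoma middle T oncogene in mammary epithelium. Tumor cells were cultured from the mammary fat pad (MFP) and from metastases in lung, bone marrow (BM) and lymph node (LN), and the metastatic lines were sorted as EpCAMhigh with low or high surface CD44. All 7 groups thus carried the same oncogene and had been through culture. The groups were MFP, whose labels carry no CD44 status, and LN CD44low, LN CD44high, BM CD44low, BM CD44high, lung CD44low and lung CD44high, with 2 bulk libraries each, taken from separate clonal isolates. A further 3 single-cell libraries, 1 each, covered LN CD44high (lymphH), lung CD44high (lungH) and lung CD44low (lungL) cells.

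Some libraries went against their labels. Epcam ranged from 315 to 941 TPM over the 8 libraries of LN and BM, but stood at 0 in both lung CD44low libraries and at 0.23 and 0.86 in lung CD44high. The 7 epithelial markers summed to 6209 to 7114 TPM in MFP, 2079 to 4354 in LN and BM, 1.74 to 2.36 in lung CD44low (Epcam, Cdh1 and Krt8 listed at 0) and 15.7 to 87.5 in lung CD44high. The 8 fibroblast markers reached 4708 to 5117 TPM in lung CD44low and 85.7 to 195 in lung CD44high, against at most 19.9 elsewhere, and none of them was at 0 in lung CD44low. Dcn held most of this sum, and without it the other 7 summed to 617 to 802 TPM in lung CD44low, 6.87 to 28.5 in lung CD44high, where Col1a2 and Thy1 were listed at 0, and at most 18.9 elsewhere. The 6 adipocyte markers reached 56.5 to 104 TPM in lung CD44low, where Adipoq, Lep and Cfd were listed at 0, and at most 12.9 elsewhere. Fabp4 carried this value, and the other 5 summed to 1.47 to 1.57 TPM in lung CD44low. The 5 macrophage markers summed to at most 39.2 TPM, reached in lung CD44low, with Adgre1 listed at 0 in every group. Without Lyz2 the other 4 summed to 3.97 to 4.34 TPM in lung CD44low and 10.5 to 23.2 in MFP. The 4 endothelial and the 4 alveolar type 2 markers summed to at most 0.21 and 0.19 TPM. The 8 cycling markers summed to 3171 to 5057 TPM in LN CD44high and BM, 481 to 3425 in LN CD44low, 699 to 773 in MFP, 36.9 to 39.2 in lung CD44low and 3.84 to 61.7 in lung CD44high. Birc5 held most of the sum in LN and BM. Without it the other 7 summed to 553 to 612 TPM in MFP, 530 to 927 in LN CD44high and BM, 136 to 929 in LN CD44low, 35.3 to 36.0 in lung CD44low and 3.39 to 52.8 in lung CD44high. The part of these differences in the results on lung was not tested, and the calls on lung are also given for each lung group. In bulk libraries fewer cells of a type and less RNA per cell cannot be told apart. Each library had 11508 to 13052 genes at 1 TPM or more, and replicates correlated at 0.895 to 0.975 (Spearman, across genes, which are not independent).

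Promoters of 5 members are shown because these genes stand for the patterns described below. Hmgcs1 and Idi1 of the mevalonate steps, Cyp51 of the sterol steps and the elongase Elovl6 were lower in lung than in LN and BM, and the sterol desaturase Sc5d was higher. Each line gives the 250 bases before the start of the gene, from RefSeq on GRCm38.p6, 5′ to 3′ on the strand of the gene. Capitals mark the core of the sterol regulatory element (TCACNCCAC), the reverse CCAAT box (ATTGG), where the SREBP partner NF-Y binds, and the GC box (GGGCGG), where Sp1 binds, each searched on both strands. No base lay in more than 1 motif. Hmgcs1 lies at chr13:119690101-119690350 on the plus strand, Idi1 at chr13:8885356-8885605 on the plus strand, Cyp51 at chr5:4104698-4104947 on the minus strand, Elovl6 at chr3:129532136-129532385 on the plus strand and Sc5d at chr9:42264301-42264550 on the minus strand.
Hmgcs1: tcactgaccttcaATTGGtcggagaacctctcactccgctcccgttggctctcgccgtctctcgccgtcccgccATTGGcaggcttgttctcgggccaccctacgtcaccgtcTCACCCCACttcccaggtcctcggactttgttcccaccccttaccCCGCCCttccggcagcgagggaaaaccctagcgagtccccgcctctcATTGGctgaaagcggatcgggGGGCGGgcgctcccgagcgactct
Idi1: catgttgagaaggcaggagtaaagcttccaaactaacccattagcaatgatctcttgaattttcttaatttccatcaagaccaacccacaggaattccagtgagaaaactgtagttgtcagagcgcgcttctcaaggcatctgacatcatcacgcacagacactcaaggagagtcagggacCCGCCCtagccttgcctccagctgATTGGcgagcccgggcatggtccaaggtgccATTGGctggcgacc
Cyp51: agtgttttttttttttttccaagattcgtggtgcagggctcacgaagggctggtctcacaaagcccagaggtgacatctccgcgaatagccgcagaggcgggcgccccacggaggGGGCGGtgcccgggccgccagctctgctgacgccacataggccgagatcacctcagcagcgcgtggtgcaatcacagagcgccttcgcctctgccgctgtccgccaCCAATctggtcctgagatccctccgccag
Elovl6: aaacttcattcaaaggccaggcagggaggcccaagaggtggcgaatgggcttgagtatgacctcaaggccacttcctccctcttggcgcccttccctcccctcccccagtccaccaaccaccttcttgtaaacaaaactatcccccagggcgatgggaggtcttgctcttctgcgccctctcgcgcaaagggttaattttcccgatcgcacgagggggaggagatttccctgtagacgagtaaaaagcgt
Sc5d: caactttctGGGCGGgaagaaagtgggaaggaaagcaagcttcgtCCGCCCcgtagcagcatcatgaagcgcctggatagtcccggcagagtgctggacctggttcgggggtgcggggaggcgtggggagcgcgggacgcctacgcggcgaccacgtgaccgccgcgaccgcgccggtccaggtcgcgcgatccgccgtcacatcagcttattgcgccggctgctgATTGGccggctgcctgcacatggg
Hmgcs1 held 1 sterol regulatory core, 3 reverse CCAAT boxes and 2 GC boxes, and Elovl6 held none of the 3 motifs. Idi1 and Sc5d, which moved in opposite directions between lung and the other sites, both held reverse CCAAT and GC boxes.

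RefSeq windows of 300 bases, 250 before to 50 after the start, were found for 24 of the 31 members, and Fdft1, Fdps, Stard4, Scd1, Scd2, Sqle and Fads1 had none. The reverse CCAAT box was in 19 of 24 members (79.2%, exact 95% interval 57.8 to 92.9), against 41.1% of 27025 genes with a window and 43.4% of the 10192 of them that were tested for expression. All 9 squalene and sterol genes with a window held it, and so did 5 of 6 mevalonate genes. The GC box was in 20 of 24 members (83.3%, 62.6 to 95.3), against 38.2% of all genes and 68.9% of tested genes. The sterol regulatory core was in 1 of 24 members, Hmgcs1, against 1.44% of all genes. A match describes letters in this window only.

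Summed over the 31 members, the level was 1535 to 2283 TPM over the 8 libraries of LN and BM, 2011 and 1080 in MFP, 1097 and 1155 in lung CD44low and 875 and 909 in lung CD44high. The 4 lung libraries were therefore below all LN and BM libraries, with MFP replicate 2 between the lung libraries. The mevalonate steps differed most, at 386 to 634 TPM in LN and BM against 189 and 170 in lung CD44low and 102 and 184 in lung CD44high. Fdps held the largest part of this sum, with means of 265.5 TPM in LN and BM and 55.0 in lung, so the order rests largely on 1 member. The elongases and desaturases summed to 349 to 744 TPM in LN and BM, 210 and 109 in MFP, 341 and 369 in lung CD44low and 171 and 125 in lung CD44high. The sum of the regulators, whose members went both ways, was 120.5 to 225 TPM in LN and BM, 165 and 100.2 in MFP and 110.2 to 167 in lung. A lung group had the lowest mean for 23 members, 10 in lung CD44low and 13 in lung CD44high, where 20.6% and 17.8% of all tested genes had their lowest mean. LN CD44high had the highest mean for 8 members and the lowest for 0, where the shares of all tested genes were 4.69% and 18.4%. MFP had the highest mean for 8 members and the lowest for 3, where the shares were 23.9% and 16.4%.

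**Figure D1:**
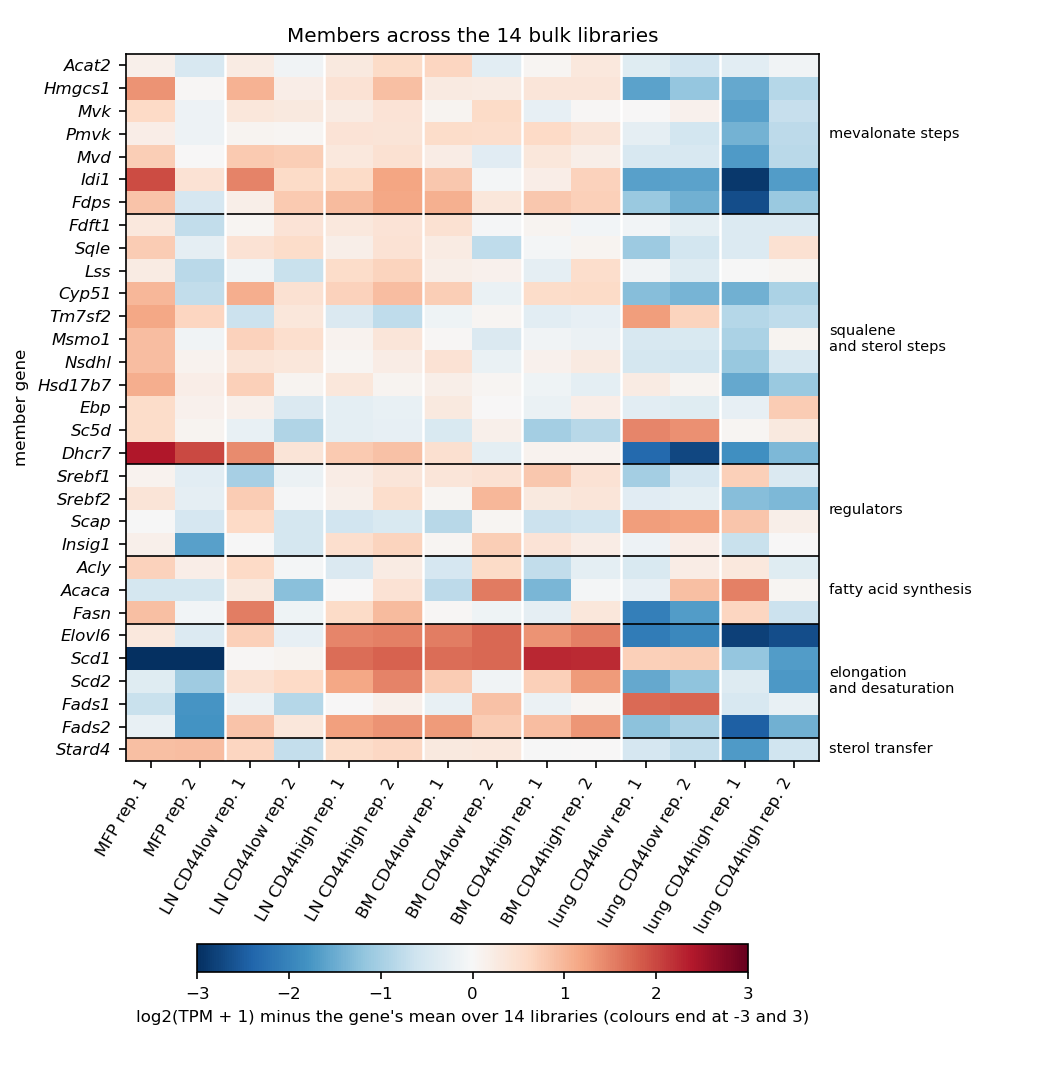
Each row is a member, ordered by role, and each column 1 of the 14 bulk libraries. Colour gives log2(TPM + 1) minus the mean of that gene over the 14 libraries. Most mevalonate rows are blue in the 4 lung columns, while the squalene and sterol rows are split. Scd1 is darkest in both MFP columns (0.13 and 0 TPM), and Sc5d, Scap and Fads1 are red in lung CD44low.

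To ask how lung cells differed from cells of the other sites, the 2 lung groups were compared with the 4 LN and BM groups. Of 31 members, 19 were lower in lung and 3 higher at a Benjamini-Hochberg adjusted p under 0.05 (limma on log2(TPM + 1)), where 24% of all tested genes were lower and 35.9% higher. The median difference was -0.76 over the members and 0.20 over all tested genes. In 13 of the 19 all 4 lung libraries lay below all 8 LN and BM libraries, as in 12.5% of all tested genes. The 3 higher members all overlapped, while 13.2% of tested genes were higher without overlap. After median-ratio scaling, which put the median of all genes at -0.03, 22 were lower and 2 higher.

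All 7 mevalonate steps were lower. Idi1, the isomerase that makes the reactive isoprenoid unit, stood at 8.19 and 8.29 TPM in lung CD44low, 2.80 and 7.87 in lung CD44high and 26.3 to 79.0 (median 43.4) in LN and BM. The lung libraries were all below the others, and the difference was -2.64 ± 0.35 (log2 scale, SE, adjusted p = 0.000133). Fdps, which joins these units to farnesyl diphosphate, stood at 70.3 and 55.9 TPM in lung CD44low, 23.4 and 70.5 in lung CD44high and 174 to 347 in LN and BM, with no overlap (-2.34 ± 0.33, adjusted p = 0.000199). Hmgcs1, the synthase of an early mevalonate step, stood at 7.42 and 10.5 TPM in lung CD44low, 7.86 and 13.3 in lung CD44high and 28.7 to 51.7 in LN and BM (-1.76 ± 0.27, adjusted p = 0.00033). The decarboxylase Mvd and the kinase Pmvk were also lower without overlap (-1.20 and -1.14). The kinase Mvk (-0.76) and the thiolase Acat2 (-0.55) were lower with overlap, and the call of Acat2 held in 7 of 14 fits without 1 library. Gm48342, Gm48574 and Gm43738 overlap Hmgcs1, Idi1 and Fdps, and the reads carried no strand, so part of these values could come from the overlapping genes. The same holds for Fdft1 with Ctsb, Cyp51 with Akap9, Tm7sf2 with Vps51 and Srebf1 with Rai1, and Lss, Scap, Elovl6 and Scd2 also overlap other annotated genes.

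The squalene and sterol steps were split. Of 11, 5 were lower, 1 higher and 5 not called. Dhcr7, the reductase of the last step of one branch, stood at 6.59 and 4.8 TPM in lung CD44low, 9.83 and 14.2 in lung CD44high and 30.3 to 102 (median 51.2) in LN and BM. No lung library reached the lowest of the others, and the difference was -2.55 ± 0.23 (adjusted p = 9.05e-06). Cyp51, the lanosterol demethylase, stood at 16.2 and 14.9 TPM in lung CD44low, 14.5 and 20.8 in lung CD44high and 35.3 to 87.3 in LN and BM (-1.87 ± 0.31, adjusted p = 0.000579, no overlap). Nsdhl (-0.88) and Hsd17b7 (-0.71) of the demethylation steps and Fdft1 (-0.50), which makes squalene, were lower by less, and Fdft1 was called in 4 of the 14 fits without 1 library. Sqle, Lss, Msmo1, Ebp and Tm7sf2 were not called. Sc5d went the other way. It stood at 96.1 and 89.4 TPM in lung CD44low, 35.4 and 41.8 in lung CD44high and 16.3 to 37.6 in LN and BM (1.28 ± 0.17, adjusted p = 0.000151), and only the lung CD44low pair lay above all LN and BM libraries.

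The elongases and desaturases held the largest difference of the members. Elovl6, which lengthens palmitate to stearate, stood at 3.98 and 4.57 TPM in lung CD44low, 2.04 and 2.36 in lung CD44high and 16.8 to 68.8 (median 58.5) in LN and BM. There was no overlap, and the difference was -3.57 ± 0.20 (adjusted p = 3.59e-07), or a mean of 3.24 TPM in lung against 51.3. Fads2, the delta-6 desaturase, stood at 20.3 and 24.4 TPM in lung CD44low, 8.11 and 17.4 in lung CD44high and 62.5 to 127 in LN and BM (-2.54 ± 0.30, adjusted p = 5.76e-05). Scd2, a stearoyl-CoA desaturase, stood at 44.1 and 55.3 TPM in lung CD44low, 98.9 and 38.5 in lung CD44high and 119.7 to 365 in LN and BM (-2.01 ± 0.28, adjusted p = 0.000163). Its paralog Scd1 was lower (-1.78 ± 0.12, adjusted p = 1.34e-06) but overlapped, since LN CD44low stood at 34.4 and 35.5 TPM. Fads1, the delta-5 desaturase, stood at 217 and 228 TPM in lung CD44low, 47.9 and 57.1 in lung CD44high and 36.6 to 123 in LN and BM. Its call as higher (0.73 ± 0.25, adjusted p = 0.0312) came with 1 lung group above and 1 within the range of the others, was lost with median-ratio scaling and held in 7 of 14 fits without 1 library.

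**Figure D2:**
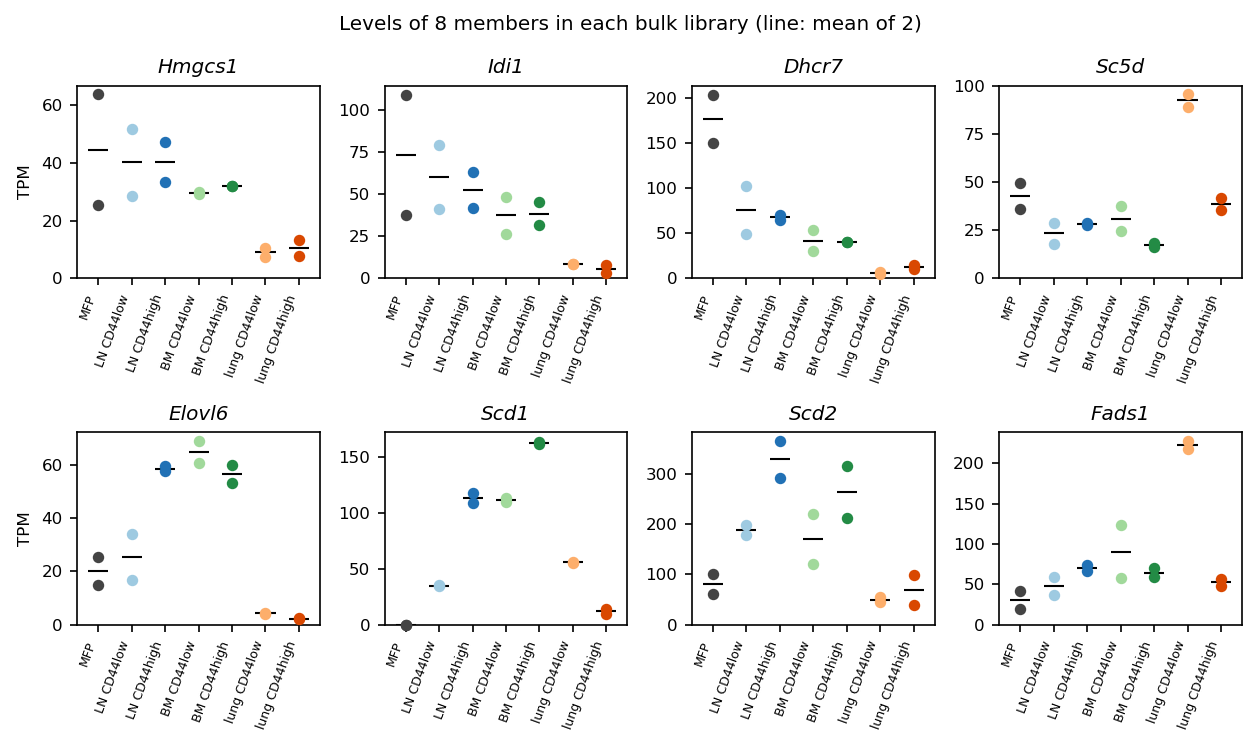
Each panel shows 1 member in TPM, on a linear axis from 0, with a point for each of the 2 libraries of a group and a line at their mean. Hmgcs1, Idi1, Dhcr7 and Elovl6 are low in both lung groups, Sc5d and Fads1 are high in lung CD44low, and Scd1 is near 0 in MFP alone.

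Among the regulators, Srebf2, the SREBP that mainly drives the cholesterol branch, stood at 34.2 and 35.5 TPM in lung CD44low, 17.6 and 16.7 in lung CD44high and 42.9 to 88.3 in LN and BM. It was lower without overlap (-1.20 ± 0.22, adjusted p = 0.000943), and with each lung group alone it stood at -1.69 ± 0.28 in lung CD44high (adjusted p = 0.000827) and was not called in lung CD44low (-0.71 ± 0.28, adjusted p = 0.0537). Scap stood at 72.9 and 70.1 TPM in lung CD44low, 54.3 and 34.0 in lung CD44high and 16.4 to 46.2 in LN and BM (1.24 ± 0.25, adjusted p = 0.00187). Lung CD44low lay above every LN and BM library, and lung CD44high replicate 2 lay within their range. Srebf1 and Insig1 were not called. Of fatty acid synthesis proper, Fasn, the synthase, was lower (-1.29 ± 0.35, adjusted p = 0.01), at 9.09 and 12.03 TPM in lung CD44low but 64.5 and 25.7 in lung CD44high. Acly, which makes cytosolic acetyl-CoA, and the carboxylase Acaca were not called, and Acaca ranged from 4.76 to 42.9 TPM within LN and BM. Stard4, a carrier of cholesterol between membranes, was lower (-1.09 ± 0.28, adjusted p = 0.00716).

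The 2 lung groups were then taken one at a time, a split added after the values were seen. Lung CD44low had 16 members lower and 4 higher than LN and BM, where 21.9% of tested genes were lower and 33.4% higher. Lung CD44high had 16 lower and 2 higher, where 21.3% were lower and 25.8% higher. The lung libraries lay below all LN and BM libraries in 13 and 15 of the lower members, and in 18.9% and 18.2% of all tested genes. Pmvk (-0.79 and -1.48), Mvd (-0.81 and -1.58) and Nsdhl (-0.75 and -1.01) were lower in lung CD44low and in lung CD44high. Acat2 was called lower in lung CD44low (-0.67) and stood at -0.42 in lung CD44high. Mvk (-1.38), Hsd17b7 (-1.46) and Stard4 (-1.36) were called lower in lung CD44high and stood at -0.14, 0.03 and -0.82 in lung CD44low. Fdft1 was called in neither (-0.39 and -0.61). Fads1 was called higher in lung CD44low (1.76 ± 0.33, adjusted p = 0.0014) and stood at -0.31 ± 0.33 in lung CD44high (adjusted p = 0.476). The median differences were -0.71 and -1.01 over the members and 0.16 and 0.06 over all tested genes. The lower lists shared 12 members, 75% of each: Hmgcs1, Pmvk, Mvd, Idi1, Fdps, Cyp51, Nsdhl, Dhcr7, Elovl6, Scd1, Scd2 and Fads2. These results use the same LN and BM libraries. Sc5d and Scap were higher in both. Tm7sf2, a sterol reductase, was higher in lung CD44low (1.23 ± 0.28, adjusted p = 0.00479) and stood at -0.54 ± 0.28 in lung CD44high (adjusted p = 0.148). Fasn stood at -2.22 ± 0.46 in lung CD44low (adjusted p = 0.00242) and -0.36 ± 0.46 in lung CD44high (adjusted p = 0.554).

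**Figure D3:**
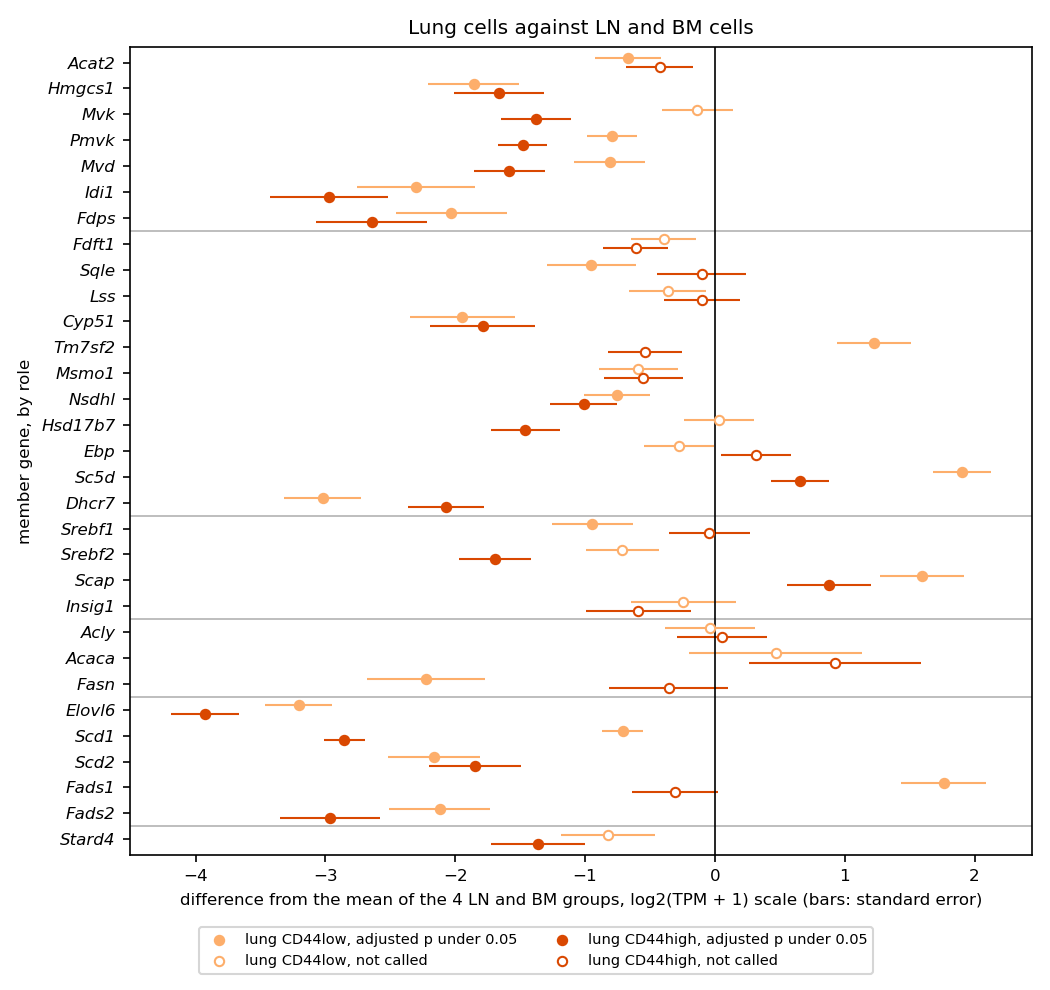
Points give the difference of lung CD44low (light) or lung CD44high (dark) from the mean of the 4 LN and BM groups on the log2(TPM + 1) scale, bars the standard error, and filled points an adjusted p under 0.05. Elovl6 lies farthest left in both, at -3.21 and -3.93, and Scd1, Fads1, Fasn and Tm7sf2 differ most between the 2 lung groups.

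The metastatic lines of LN and BM were compared with MFP to ask what separated them from the primary site. Scd1, a stearoyl-CoA desaturase, rose in all 4 groups. It stood at 0.13 and 0 TPM in MFP, 34.4 and 35.5 in LN CD44low, 109 and 118 in LN CD44high, 110.1 and 114 in BM CD44low and 164 and 162 in BM CD44high. MFP was thus near or at 0, so only differences on the log2(TPM + 1) scale are given: 5.08 ± 0.20, 6.75 ± 0.20, 6.73 ± 0.20 and 7.27 ± 0.20 (limma adjusted p = 3.38e-07, 4.47e-08, 3.47e-08 and 4.5e-08). All 4 calls held in each of the 14 fits without 1 library. Scd1 and Scd2 are close paralogs that can share reads, and Scd2 stood at 101 and 61.4 TPM in the MFP libraries where Scd1 was near 0. Elovl6 rose in LN CD44high (57.7 and 59.4 TPM), BM CD44low (60.6 and 68.8) and BM CD44high (53.2 and 59.9) from 25.5 and 14.8 in MFP, by 1.54, 1.68 and 1.49 with SE 0.33. In LN CD44low it stood at 33.9 and 16.8 TPM. Fads2 rose by 2.30, 2.02 and 2.13 in the same 3 groups, from 42.1 and 13.5 TPM in MFP to 84.2 to 127. Scd2 rose in LN CD44high (2.04 ± 0.45, adjusted p = 0.00957) and BM CD44high (1.70 ± 0.45, adjusted p = 0.0196), and Fads1 rose in LN CD44high (1.29 ± 0.42, adjusted p = 0.048) and BM CD44low (1.55 ± 0.42, adjusted p = 0.0239). Fads1 was called in 5 and 12 of 14 fits without 1 library, and in a fit without the lung libraries its limma adjusted p was 0.0863 and 0.0512. The 4 comparisons share the 2 MFP libraries.

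Dhcr7 fell in all 4. It stood at 204 and 151 TPM in MFP, 102 and 49.4 in LN CD44low, 65.2 and 69.7 in LN CD44high, 53.1 and 30.3 in BM CD44low and 40.7 and 40.2 in BM CD44high. The differences were -1.29, -1.36, -2.10 and -2.09 with SE 0.37 (limma adjusted p = 0.0465, 0.0252, 0.00303 and 0.00289). The calls in BM held in all 14 fits without 1 library, while those in LN held in 3 and 10 of 14 and were lost with median-ratio scaling. Tm7sf2 fell in LN CD44high (-1.50 ± 0.36, adjusted p = 0.0143) and BM CD44high (-1.18 ± 0.36, adjusted p = 0.0359), and Sc5d fell in BM CD44high (-1.24 ± 0.28, adjusted p = 0.0104). Both calls of Tm7sf2 and that of Sc5d were lost with median-ratio scaling, and Tm7sf2 in BM CD44high was called in 8 of 14 fits without 1 library. None of the 7 mevalonate steps, the 4 regulators or the 3 fatty acid synthesis genes was called in these 4 comparisons with all 14 libraries. Insig1 was called in 1 of 14 fits without 1 library in each of LN CD44high, BM CD44low and BM CD44high.

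In all, LN CD44low had 1 member higher and 1 lower than MFP, where 4.5% and 9.51% of tested genes were higher and lower. LN CD44high had 5 and 2 (5.87% and 17.9% of tested genes), BM CD44low 4 and 1 (9.36% and 13.8%), and BM CD44high 4 and 3 (8.38% and 18.6%). With median-ratio scaling the same counts were 2 and 0, 7 and 0, 4 and 1, and 7 and 1. The medians over members were 0.19, 0.28, 0.11 and -0.19 against -0.18, -0.30, -0.04 and -0.34 over all genes. After that scaling they were 0.51, 0.81, 0.39 and 0.32 against 0.02, 0.03, 0.12 and 0.05, so the sign in BM CD44high turned. MFP replicate 2 decided many calls: without it 2 members were called in LN CD44high, 2 in BM CD44low, 4 in BM CD44high and 1 in LN CD44low. Without MFP replicate 1 the higher and lower members were 2 and 0 in LN CD44low, 9 and 0 in LN CD44high, 5 and 1 in BM CD44low and 6 and 1 in BM CD44high. The count in LN CD44high was 1 without LN CD44high replicate 2, and that in BM CD44high was 3 without BM CD44high replicate 2. In LN CD44low it was 4 without LN CD44low replicate 1, and 1 without any single LN CD44high, BM CD44high or lung library. Elovl6, Scd2 and Fads2 in LN CD44high and BM CD44high lost their calls without MFP replicate 2 and without replicate 2 of their own group.

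Lung cells were compared with MFP in the same way. Lung CD44low had 4 members higher and 8 lower, where 21.9% of tested genes were higher and 23.1% lower. Lung CD44high had 1 higher and 13 lower, where 14.9% were higher and 21.2% lower, and 3 and 13 with median-ratio scaling. Dhcr7 fell by 4.73 on the log2 scale in lung CD44low (SE 0.37, adjusted p = 5.08e-06) and by 3.78 in lung CD44high (adjusted p = 4.4e-05), and Idi1 fell by 2.82 and 3.49 with SE 0.57. Elovl6 fell by 1.96 and 2.68 with SE 0.33. Hmgcs1, Nsdhl and Stard4 also fell in both, Fasn and Cyp51 in lung CD44low, and Mvk, Pmvk, Mvd, Fdps, Tm7sf2, Hsd17b7 and Srebf2 in lung CD44high. Scd1 rose in both (5.75 ± 0.20 and 3.60 ± 0.20), and Fads1 (2.94 ± 0.42), Scap (1.49 ± 0.41) and Sc5d (1.11 ± 0.28) rose in lung CD44low. Without MFP replicate 1 the higher and lower members were 5 and 4 in lung CD44low and 3 and 7 in lung CD44high, and without MFP replicate 2 they were 2 and 11, and 1 and 16. Without lung CD44low replicate 1 the count in lung CD44low was 6, and without lung CD44high replicate 1 that in lung CD44high was 8. Cyp51 and Nsdhl in lung CD44low lost their calls with median-ratio scaling and held them in 7 and 11 of 14 fits without 1 library. Stard4 and Scap in lung CD44low held theirs in 10 and 11, and the other calls of these 2 comparisons in 11 to 14.

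CD44high cells were compared with CD44low cells within each organ. In LN 1 member was called, higher, where 0.189% of tested genes were higher and 0.189% lower. This was Scd1 (1.67 ± 0.20, adjusted p = 0.0064), which lost its call without either LN CD44high library and with a pseudocount of 0.1, when 0 members were called. Without LN CD44low replicate 1 the count was 2. In BM no member was called by limma, where 0.0717% of tested genes were higher and 0.0782% lower. At an unadjusted p under 0.05 there were 2, Scd1 (0.54 ± 0.20) and Sc5d (-0.77 ± 0.28), and without BM CD44low replicate 1 the adjusted count was 1. The RNA of Cd44 itself did not follow the sort. It stood at 147 and 82.7 TPM in LN CD44low and 49.0 and 52.3 in LN CD44high, 43.8 and 74.9 in BM CD44low and 50.5 and 49.0 in BM CD44high, and 12.2 and 21.6 in lung CD44low and 22.0 and 12.1 in lung CD44high.

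In lung 1 member was higher and 6 lower in CD44high cells, where 12.2% of tested genes were higher and 18.5% lower. Scd1 stood at 55.7 and 56.5 TPM in lung CD44low and 14.5 and 9.78 in lung CD44high (-2.14 ± 0.20, adjusted p = 2.47e-05). Fads1 was also lower (-2.07 ± 0.42, adjusted p = 0.00436), and both calls held in all 14 fits without 1 library. Tm7sf2 stood at 20.1 and 13.1 TPM against 3.93 and 4.20 (-1.77 ± 0.36, adjusted p = 0.00474). Hsd17b7 (-1.49), Sc5d (-1.25) and Mvk (-1.24) were also lower. Fasn was the member that was higher (1.87 ± 0.58, adjusted p = 0.0343), a call that was lost without the filter on low TPM and held in 11 of 14 fits without 1 library. The fibroblast markers stood at 4708 TPM or more in lung CD44low and at most 195 in lung CD44high, and their part in these differences was not tested. Without lung CD44low replicate 1, 2 members were called, and without lung CD44high replicate 1, 4.

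The CD44 difference in lung was set against the mean of those in LN and BM by an interaction contrast. It was called for 3 members, where 22% of tested genes were called in either direction. In all 3 the CD44high minus CD44low difference was lower in lung than the mean of those in LN and BM. Scd1, higher in CD44high cells of LN and lower in those of lung, gave -3.25 ± 0.24 (limma adjusted p = 7.59e-06) and held in all 14 fits without 1 library. Fads1 gave -2.17 ± 0.51 (adjusted p = 0.0133, held in 11 of 14) and Tm7sf2 -1.43 ± 0.44 (adjusted p = 0.044, held in 3 of 14). With median-ratio scaling 7 members were called, and with a pseudocount of 0.1, 5. The count was 1 without either lung CD44low library or without lung CD44high replicate 1, 5 without BM CD44low replicate 2 and 6 without either LN CD44low library.

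Sqle and Srebf1 were followed in every comparison and called in none of the 11. Sqle, which oxidises squalene and is a control point of the sterol branch, stood at 128 and 61.5 TPM in MFP, 44.0 to 109 in LN and BM, 34.6 and 51.0 in lung CD44low and 56.3 and 103 in lung CD44high. Its differences ran from -1.06 in lung CD44low against MFP (SE 0.43, limma adjusted p = 0.0694) to 0.85 between the lung groups. Srebf1, the SREBP that mainly drives fatty acid synthesis, stood at 47.3 and 35.2 TPM in MFP, 21.7 to 77.7 in LN and BM, 21.1 and 30.95 in lung CD44low and 73.1 and 32.4 in lung CD44high, with differences of -0.65 to 0.90. Both ranges overlapped between sites. In the split by lung group, which was added after seeing the data, Sqle (-0.95 ± 0.34, limma adjusted p = 0.0369) and Srebf1 (-0.94 ± 0.31, limma adjusted p = 0.0261) were lower in lung CD44low than in LN and BM, and both overlapped.

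The libraries of a group differed along the pathway. In MFP, replicate 1 was above replicate 2 for 30 of 31 members, with a median difference of 0.74 (log2 scale), while 49.8% of all genes were higher in replicate 1 and their median was 0. All 18 mevalonate, squalene and sterol members were higher in MFP replicate 1, by a median of 0.86. The mevalonate sum in MFP was 612 TPM against 272. In lung CD44high all 18 were lower in replicate 1, with a median difference of -0.64, while 50.3% of all genes were higher, and the mevalonate sum was 102 TPM against 184. In LN CD44low 24 of 31 members were higher in replicate 1, with a median of 0.55 against 0.22 over all genes. In LN CD44high only 3 of 31 were higher in replicate 1 (median -0.15), while 53.6% of all genes were. In BM CD44low 15 of the 18 were higher in replicate 1, with a median of 0.47 over the 18 and 0.04 over the 31, while 33.9% of all genes were higher. In BM CD44high and lung CD44low 10 and 14 of 31 were higher (medians -0.08 and -0.02), as were 40.8% and 33.3% of all genes. Marker sums also differed between replicates 1 and 2. The cycling markers stood at 3.84 and 61.7 TPM in lung CD44high, 3425 and 481 in LN CD44low and 773 and 699 in MFP. The epithelial markers stood at 15.7 and 87.5 TPM in lung CD44high. Their part in the differences of the members was not tested.

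**Figure D4:**
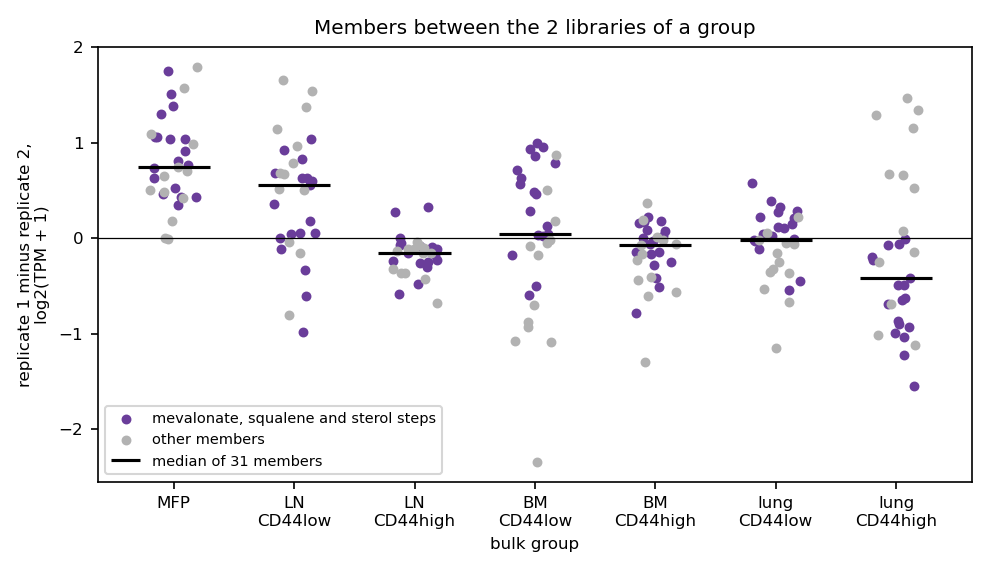
Each point is 1 member, placed by its log2(TPM + 1) in replicate 1 minus that in replicate 2 of a group, with purple for mevalonate, squalene and sterol steps and grey for other members. The line is the median of 31 members. In MFP nearly all points lie above 0, and in lung CD44high all 18 purple points lie below 0.

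Members varied together over the 14 libraries, which share the group structure above. Pearson correlations of log2(TPM + 1), given as a description, had a median of 0.77 over the 21 pairs of mevalonate members, with all 21 above 0 and a range of 0.31 to 0.96. Over the 153 pairs of mevalonate, squalene and sterol members the median was 0.58, over all 465 pairs of members 0.31, and over all tested genes 0.06. With median-ratio scaling the medians over all members and all tested genes were 0.47 and -0.003. The closest pair was Idi1 with Nsdhl (0.97), followed by Hmgcs1 with Idi1 (0.96). Sc5d, Scap, Acaca and Fads1 ran against the others, with median correlations of -0.45, -0.54, -0.39 and -0.24 with the mevalonate, squalene and sterol members. Scd1 (-0.03) and Tm7sf2 (-0.004) were near 0.

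Other genes of lipid metabolism were listed beside the members. Of 15 tested genes of synthesis and SREBP control that are not members, 6 were higher and 4 lower in lung than in LN and BM. Insig2, a retention factor like Insig1, stood at 122 and 148 TPM in lung CD44low, 69.8 and 62.2 in lung CD44high and 11.5 to 30.2 in LN and BM (2.31 ± 0.20, adjusted p = 6.36e-06). Of 8 genes of uptake and trafficking, 5 were higher and 2 lower. These included Soat1, which esterifies cholesterol for storage (2.38 ± 0.26), and Lipa, the lysosomal lipase that frees it (1.73 ± 0.18), both higher, and Scarb1, the receptor for high-density lipoprotein (-2.00 ± 0.24), which was lower. In lung CD44low and lung CD44high these stood at 3.11 and 1.65 for Soat1, 1.37 and 2.09 for Lipa, -2.53 and -1.46 for Scarb1 and 2.82 and 1.80 for Insig2, all called. Of 6 genes of LXR signalling and efflux 2 were higher and 1 lower, and of 7 tested genes of fatty acid oxidation 3 were higher and 1 lower. The background shares for this comparison are those given above, 35.9% higher and 24% lower. In the same order of lists, lung CD44low alone had 6, 5, 3 and 2 genes higher and 1, 2, 0 and 3 lower, and lung CD44high alone had 6, 3, 1 and 5 higher and 5, 2, 2 and 0 lower. Against MFP, 1 or 2 of the 6 genes of LXR signalling and efflux were higher and 1 or 2 lower in each of the 6 groups, in comparisons where the shares of tested genes are those given above. Abcg1, a sterol exporter, was lower in all 6 (-2.41 to -2.84, from 6.20 and 6.08 TPM in MFP to at most 0.48), and Nr1h3, which codes for LXR alpha, was higher in all but lung CD44high (1.69 to 3.49). Both were named after their values were seen.

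The 3 single-cell libraries gave the members in counts per 10000 counts of the kept cells. Each group was 1 library, so no test was made, and the exact Poisson intervals cover counting error only. There were 2562 cells in lymphH, 1236 in lungH and 348 in lungL, with medians of 585, 557 and 4011 counts per cell. Summed over the members the level was 66.9 (95% interval 66.2 to 67.6) in lymphH, 25.1 (24.5 to 25.8) in lungH and 15.8 (15.3 to 16.3) in lungL. The members thus took 2.66 times (2.59 to 2.74) the share in lymphH that they took in lungH, and 4.24 times (4.09 to 4.39) that in lungL. The mevalonate steps differed most, by 4.47 times (4.18 to 4.80) and 9.17 times (8.33 to 10.1).

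Idi1 stood at 6.10 counts per 10000 in lymphH, 1.04 in lungH and 0.42 in lungL, from 3223, 231 and 94 counts. Scd2 stood at 6.99, 1.47 and 1.31, and Cyp51 at 4.54, 1.06 and 0.44. Against lungH, 20 of 31 members were at least 2-fold higher in lymphH with 30 or more counts in the higher library, and 1, the sterol isomerase Ebp, was as much lower (0.42 times, 0.36 to 0.49), where 14.2% of the genes with enough counts were higher and 14.2% lower. Against lungL, 25 were higher and 0 lower, where 15.3% and 15.5% of genes were. In 26 of 31 members the direction was that of the bulk TPM of the same groups, in both pairs, as it was in 63.2% and 66.6% of all genes compared. All 31 members stood higher in lymphH than in lungL, Srebf1 by the least (1.09 times, 0.90 to 1.33). For that pair the 26 therefore only counts the members whose bulk ratio was above 1.

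Some members did not follow the bulk levels. Sc5d was 2.73 times (2.19 to 3.45) higher in lymphH than in lungL, where its bulk ratio was 0.30, and Fads1 was 1.10 times (0.94 to 1.29) against a bulk ratio of 0.32. Tm7sf2 was 1.84 times (1.35 to 2.55) and Scap 1.13 times (0.89 to 1.45), against bulk ratios of 0.30 and 0.29. None of these 4 members, all called higher in bulk lung CD44low than in LN and BM, was higher in lungL than in lymphH. Elovl6 was 3.98 times (3.25 to 4.92) higher in lymphH than in lungH, against 26.6 in bulk. LungH stood above lungL by at least 2-fold for 11 members and below it for 1, Scd1 (0.44 times, 0.34 to 0.57), where 13.7% and 13.6% of genes were. Of 30 compared members 14 had the bulk direction, as did 61.4% of all genes compared. Of the 6 members called lower in bulk lung CD44high than CD44low, Scd1 and Hsd17b7 (0.91 times, 0.61 to 1.37) were lower in lungH. Tm7sf2 (1.81 times, 1.27 to 2.61) and Sc5d (1.92 times, 1.48 to 2.51) were higher, against bulk ratios of 0.24 and 0.42. Mvk (1.11 times, 0.74 to 1.66) and Fads1 (1.25 against 1.04 per 10000) were also higher in lungH. Fasn, called higher in bulk, was 1.66 times as high. Marker lists also differed between the libraries, the fibroblast list in the opposite direction and the cycling list little between lymphH and lungH. Per 10000 counts the epithelial markers stood at 9.06 in lymphH, 4.27 in lungH and 0.88 in lungL, the fibroblast markers at 0.12, 0.27 and 21.4, and the cycling markers at 14.6, 13.6 and 4.03. In cells with and without a Mki67 or Top2a count, the summed members stood at 65.9 and 67.8 per 10000 in lymphH. They stood at 26.3 and 24.3 in lungH and at 14.6 and 16.3 in lungL. Cells with such a count also had more counts per cell in each library. The part of the marker lists in the levels of the members was not tested.

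**Figure D5:**
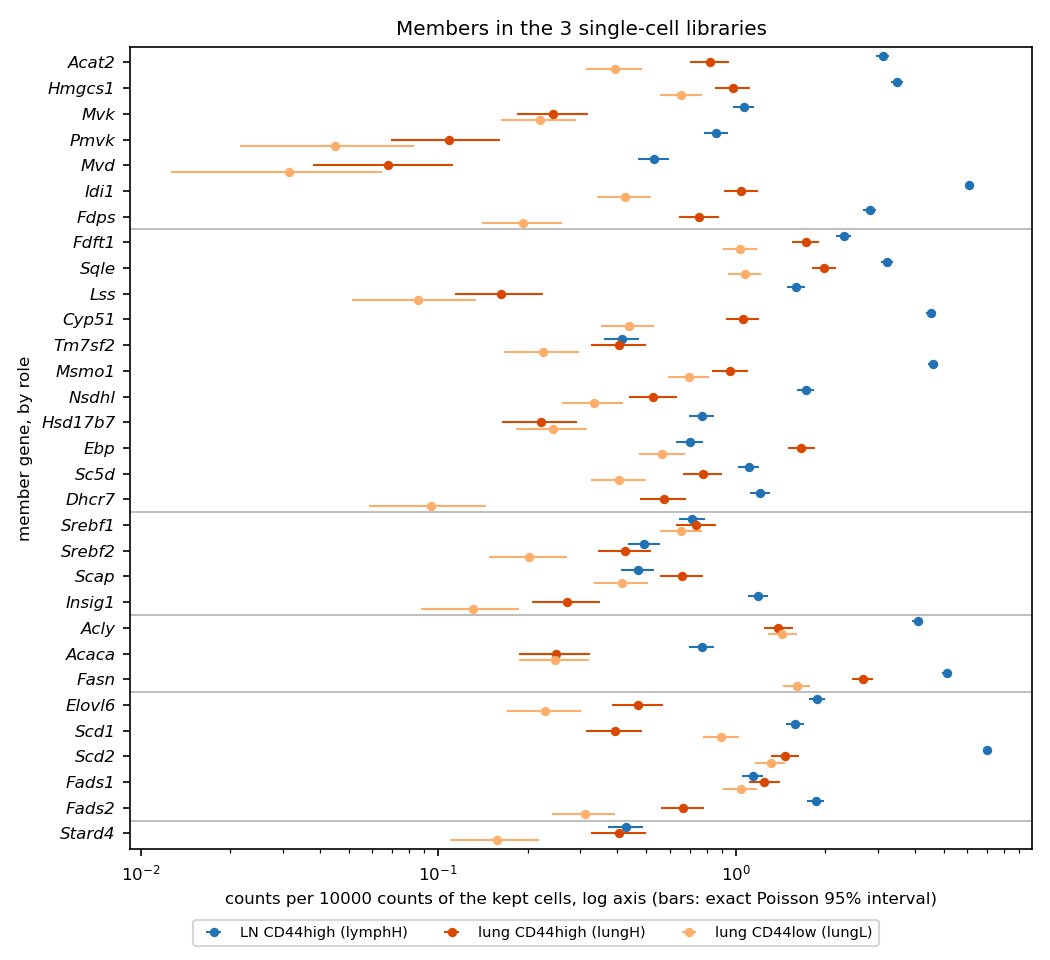
Points give each member in counts per 10000 counts of the kept cells on a log axis, 1 colour per single-cell library, with exact Poisson 95% intervals. LymphH lies to the right of both lung libraries for all 7 mevalonate steps, while Srebf1 and Fads1 lie close together and Ebp is highest in lungH.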

How the data were processed

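Bulk RNA was made into libraries with a modified SMART-seq2 protocol and Nextera XT, which keep no strand. The authors used STAR for alignment to mm10 and RSEM with a GENCODE annotation for quantification, and they deposited TPM values, 1 column per library. The methods state a minimum number of reads for a library, but the depth of each is not given in the sources used here, so no counting error could be set for low TPM. TPM divides by library content and transcript length, and a change in a few abundant genes moves all others. For single cells (ddSeq, SureCell 3′ chemistry) the authors quantified with kallisto and deposited counts per gene and barcode. The labels name replicate 1 for both lung matrices and no replicate for lymphH, and all are marked as merged. The methods speak of replicate isolates for single cells but do not say whether a matrix holds more than 1, so each was taken as 1 sample, and barcodes were renumbered so that shared ones could not be counted. The versions of STAR, RSEM and kallisto are not given in the sources used here.

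Bulk values were taken as log2(TPM + 1), and 15348 genes that reached 1 TPM in 2 or more libraries were fitted in R 4.3.3 as a mean for each of the 7 groups, which leaves 7 degrees of freedom (limma 3.58.1, lmFit, then eBayes with a trend). Tests were two-sided, and p was Benjamini-Hochberg adjusted over all tested genes of a comparison. A member was called at an adjusted p under 0.05. The study's own count test and its threshold of 2 on the log2 scale were not the main choice here because the values are TPM. An exact permutation test of 2 against 2 libraries cannot go below 0.333. A fold on the log2(TPM + 1) scale understates changes of low genes. No batch is given in the labels. Replicate numbers were not used to pair samples. Differences between replicates correlated between groups by -0.194 to 0.168 over 21 pairs of groups, with a median of -0.037. These values cannot show whether CD44low and CD44high lines with the same number came from the same mouse. The fit was also run on simulated data, and its outcome there is not reported here.

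Single cells with more than 250 genes and under 10% mitochondrial counts were kept, and counts were summed per library (2210623 in lungH, 2220759 in lungL and 5287425 in lymphH). Doublets were not called. Ratios carry exact binomial 95% intervals. Alternatives were a pseudocount of 0.1, no filter, a filter of 5 TPM, median-ratio scaling, a replicate block, a fold threshold, unadjusted p, each library left out, and other cell filters. A fit without lung and each lung group alone were added after seeing the data. The members and lists, and the markers of epithelial, fibroblast, adipocyte, macrophage, endothelial, alveolar and cycling cells, were chosen with earlier results of these data known. Each comparison names at most 10 called members, those with the largest differences and no overlap first, and Hmgcs1, Sqle, Srebf1, Srebf2, Fasn, Scd1 and Scd2 throughout, with at most 4 genes of each other list. Further members are named to account for all 31. No deposited column was left unmapped.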

Additional observations from a re-analysis of the deposited data

Results flagged for a closer look

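Scd1, Fads1 and Tm7sf2 drew attention because their CD44 difference in lung was not that in LN and BM, by a test of the difference itself (limma interaction contrast, 2 libraries a group). The difference in lung minus the mean of those in LN and BM was -3.25 for Scd1, -2.17 for Fads1 and -1.43 for Tm7sf2 on the log2(TPM + 1) scale. For Scd1 the difference between CD44high and CD44low was 1.67 in LN, 0.54 in BM and -2.14 in lung. For Fads1 it was 0.59, -0.39 and -2.07. For Tm7sf2 it was -0.43, -0.25 and -1.77, the same sign in all 3 organs. The call of Tm7sf2 held in 3 of 14 fits without 1 library and was lost with the replicate block, that of Fads1 held in 11 and that of Scd1 in 14. The 2 lung groups also differed in fibroblast markers, and the part of those in these values was not tested. In the single-cell libraries, where no test was made, only Scd1 of the 3 was lower in lungH than in lungL (0.44 times). Tm7sf2 was 1.81 times (1.27 to 2.61) as high in lungH. Fads1 stood at 1.25 counts per 10000 in lungH and 1.04 in lungL, and the interval of this ratio was 1.004 to 1.436.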

How the results depend on the processing

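Taken with 1 lung group alone, Hsd17b7 stood at 0.033 in lung CD44low and Fads1 at -0.31 in lung CD44high against LN and BM, opposite in sign to their pooled differences. No other called member turned its direction under the alternatives run. With an absolute log2 fold change over 2 as well, the called members were 1 in LN CD44low, 3 in LN CD44high, 3 in BM CD44low, 3 in BM CD44high, 6 in lung CD44low and 6 in lung CD44high against MFP, 0 for CD44 in LN, 2 for CD44 in lung and 6 for lung against LN and BM. With unadjusted p they were 6 in LN CD44low against MFP, 4 for CD44 in LN, 2 in BM, 11 in lung and 9 for the interaction. Without a filter on low TPM 1 member was called in LN CD44low against MFP. The fit of MFP, LN and BM only called 1 in LN CD44low, 6 in LN CD44high, 4 in BM CD44low and 6 in BM CD44high against MFP, and lost Dhcr7 in LN CD44low, Fads1 in LN CD44high and BM CD44low and Tm7sf2 in BM CD44high. The interaction count was 5 with a pseudocount of 0.1 and 7 with median-ratio scaling, and CD44 in LN had 0 with a pseudocount of 0.1. The median correlation between members went from 0.31 to 0.47 with median-ratio scaling.

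With 1 library left out at a time, the called members were 1 to 4 in LN CD44low, 1 to 9 in LN CD44high, 2 to 6 in BM CD44low, 3 to 8 in BM CD44high, 6 to 14 in lung CD44low and 8 to 17 in lung CD44high against MFP. They were 0 to 2 for CD44 in LN, 0 to 1 in BM and 2 to 10 in lung, 18 to 24 for lung against LN and BM and 1 to 6 for the interaction. With a replicate block the counts were 2, 6, 5, 6, 12 and 14 against MFP, 1, 0 and 7 for CD44, 22 for lung against LN and BM and 2 for the interaction. The block lost Fads1 in LN CD44high, Tm7sf2 in BM CD44high and Tm7sf2 in the interaction and changed no other call. The numbers were not taken to pair the samples.

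In single cells with more than 500 genes the summed members stood at 26.3 per 10000 in lungH and 70.7 in lymphH. Over all barcodes they were 24.2 in lungH, 15.0 in lungL and 65.7 in lymphH, and as a mean of per-cell values 22.5 in lungH and 56.4 in lymphH. The cause of these shifts was not tested. Groups of 2 libraries, a bulk read depth not known per library and 1 single-cell library per group limit all values.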
